A study of Mus musculus with 18 samples.

Results

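Many dual-specificity phosphatases switch off mitogen-activated protein kinases (MAPKs). Here 9 genes of this family were followed through the response of mouse B cells to Toll-like receptor (TLR) agonists. The members were taken by gene symbol, as Dusp1, Dusp2, Dusp4, Dusp5, Dusp6, Dusp7, Dusp10, Dusp16 and Dusp22, out of 23420 genes measured. Every one of the 9 was present and passed the filter on low values, which required over 0 log2 CPM in at least 3 of the libraries fitted. CPM are read counts scaled to a common library size, and the values deposited were on the log2 scale.

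RNA was sequenced from splenic B cells of MRL/lpr mice, purified by bead depletion of other cells, 5 to 7 weeks of age, after 4 h of culture. MRL/lpr mice are lupus-prone through the lpr mutation of Fas among other loci, and all groups shared this background. There were 18 libraries in 6 groups of 3. Tlr9het cells were labelled Tlr9+/- Tlr7-/-, came from females, and were left unstimulated or given 10 µg/ml of CpG (ODN 1826), a DNA agonist of TLR9. Tlr997 cells, also Tlr7-/- and female and cultured in the same 2 ways, carried a TLR9 whose signaling TIR domain was that of TLR7. Tlr779 cells were Tlr9-/- and male, carried a TLR7 with the TIR domain of TLR9, and were left unstimulated or given 5 µg/ml of CL097, a small-molecule agonist of TLR7. The swapped receptors were germline alleles, so every cell type of these mice carried them, and the study chose Tlr9+/- mice as the control for Tlr997 to match the amount of receptor. The treatment notes write the control of the Tlr7-/- libraries as Tlr9-/-, against the sample titles; the titles were followed. Sex, genotype and agonist changed together between the Tlr7-/- and the Tlr9-/- libraries, so these were not tested against each other, and Tlr7WT libraries were not analysed here. Age may have changed with them, because the study's methods give 5 weeks for the females and 5 to 7 weeks for the males.

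TLR7 and TLR9 signal through the adaptor MyD88 to NF-κB and to the MAPKs ERK, p38 and JNK. A MAPK is active only while both a threonine and a tyrosine of its activation loop are phosphorylated, and many dual-specificity phosphatases remove both phosphates. Many of their genes are themselves targets of MAPK signaling, which makes them negative feedback regulators, and they differ in place and substrate. DUSP1, DUSP2, DUSP4 and DUSP5 are inducible nuclear enzymes, DUSP6 and DUSP7 are cytoplasmic and prefer ERK, DUSP10 and DUSP16 prefer JNK and p38, and DUSP22 is a small atypical member that lacks the MAPK-binding domain.

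B cell identity was checked on marker genes. All 7 B cell markers were detected, and their summed level was 5850 to 7670 CPM in unstimulated libraries. With CpG it was 1820 to 1880 CPM in Tlr9het and 2790 to 3330 CPM in Tlr997, without overlap, and with CL097 2580 to 3230 CPM. By the test described below, 6 of the 7 fell and 1 rose with CpG in Tlr9het, 4 fell in Tlr997 and 5 fell with CL097. With CpG, 3 of the 7 were called higher in Tlr997 than in Tlr9het, beside 2.72% of all genes called in either direction. Of other lists, the summed level over all libraries was 50.7 to 121 CPM for the T cell list, most of it Lck, 90.3 to 445 CPM for macrophages and monocytes, 17.1 to 128 CPM for neutrophils, 0.746 to 166 CPM for erythroid cells, 0.775 to 7.4 CPM for NK cells and 23.2 to 99.5 CPM for plasmacytoid dendritic cells, most of it Bst2. The globin gene Hba-a1 was at -5.05 log2 CPM in every group, the value that undetected genes most often have in these files. Their part in the results below was not tested. In such bulk samples, fewer cells of a type and less RNA per cell cannot be told apart. Tlr7 was at 2.68 to 4.28 log2 CPM in Tlr9het, 4.81 to 5.36 in Tlr997 and 6.61 to 7.82 in Tlr779. Tlr9 was at 6.93 to 8.08 in all libraries, including the Tlr9-/- ones. Mean Tlr9 without stimulation was 7.37 in Tlr9het and 7.04 in Tlr997. With CpG it was 8.01 in Tlr9het and 7.31 in Tlr997, a difference of -0.70 (SE 0.09, adjusted p = 0.00078 in the limma test described below). Gene totals do not separate a deleted part from the rest of a gene or a swapped domain from its source, so they do not check the genotypes. Libraries of a group correlated at 0.944 to 0.989 across genes, lowest with the unstimulated Tlr997 library of replicate 3, and leaving that library out changed no call among the 9 members.

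The stretch of 250 bases before the annotated start of transcription is shown for 5 members, because the data contrast them: Dusp6 had the largest fall and Dusp10 the largest rise of the 9, Dusp2 was called in the test of the difference between the CpG responses, Dusp5 was called with CL097 and not with CpG, and Dusp1 was called in no comparison. Sequences are those of RefSeq for GRCm38.p6, the assembly behind mm10, on the strand of the gene. Of the 9 members 8 matched, all but Dusp4. Capitals mark every match, on either strand, to 6 motifs, namely the AP-1 site TGANTCA, the cyclic AMP response element TGACGTCA, the ETS site CCGGAAG, the E-box CACGTG, the NF-κB consensus and the CArG box, which is bound by serum response factor.
Dusp6, chr10:99262981-99263230, plus strand
Dusp6: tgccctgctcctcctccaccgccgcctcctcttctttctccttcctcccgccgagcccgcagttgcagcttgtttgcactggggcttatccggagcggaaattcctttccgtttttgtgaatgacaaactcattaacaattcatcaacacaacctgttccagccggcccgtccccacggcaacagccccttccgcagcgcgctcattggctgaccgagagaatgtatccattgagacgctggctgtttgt
Dusp10, chr1:184034131-184034380, plus strand
Dusp10: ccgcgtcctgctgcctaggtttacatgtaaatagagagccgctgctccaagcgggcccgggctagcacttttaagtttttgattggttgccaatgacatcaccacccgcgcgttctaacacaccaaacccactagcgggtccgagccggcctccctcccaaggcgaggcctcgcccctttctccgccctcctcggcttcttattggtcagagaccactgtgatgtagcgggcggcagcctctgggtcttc
Dusp2, chr2:127335909-127336158, plus strand
Dusp2: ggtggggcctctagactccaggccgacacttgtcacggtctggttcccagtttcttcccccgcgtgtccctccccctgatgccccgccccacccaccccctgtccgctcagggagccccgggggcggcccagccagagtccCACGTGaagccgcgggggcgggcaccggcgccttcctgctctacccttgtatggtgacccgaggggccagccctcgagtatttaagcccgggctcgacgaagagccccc
Dusp5, chr19:53528895-53529144, plus strand
Dusp5: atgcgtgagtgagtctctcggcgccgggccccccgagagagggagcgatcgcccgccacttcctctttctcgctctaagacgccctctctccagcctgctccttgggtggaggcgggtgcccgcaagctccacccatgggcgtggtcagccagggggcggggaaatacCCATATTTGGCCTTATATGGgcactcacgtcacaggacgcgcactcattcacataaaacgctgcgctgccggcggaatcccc
Dusp1, chr17:26508473-26508722, minus strand
Dusp1: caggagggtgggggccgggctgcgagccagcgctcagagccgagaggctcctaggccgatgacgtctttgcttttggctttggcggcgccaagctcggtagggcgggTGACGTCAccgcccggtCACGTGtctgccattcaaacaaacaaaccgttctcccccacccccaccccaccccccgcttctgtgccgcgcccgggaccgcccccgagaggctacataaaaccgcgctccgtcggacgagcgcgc

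The windows of Dusp6 and Dusp10 held none of the 6 motifs, and neither did those of Dusp7 and Dusp16, whose windows lie partly or wholly inside the gene spans given below because the promoter table takes a start within them. Dusp5 held 2 CArG boxes side by side, CCATATTTGG from base 82 to base 73 before the start and CCTTATATGG from base 72 to base 63. Dusp1 held the cyclic AMP response element from base 143 to base 136 and an E-box from base 126 to base 121, Dusp2 an E-box from base 109 to base 104, and Dusp22, not shown, an NF-κB consensus from base 240 to base 231. No 2 matches overlapped. Among 32851 annotated windows of the same length, 1.47% held a CArG box, 1.55% the cyclic AMP response element, 3.9% the NF-κB consensus, 6.02% the E-box, 6.75% the AP-1 site and 6.91% the ETS site. A match describes the letters and is not a measured site, and other starts of these genes were not searched.

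Levels of different genes were compared per kb of exon, on the log2 CPM per kb scale, with exon lengths of the GENCODE M21 annotation of GRCm38. In unstimulated Tlr9het cells Dusp2, which encodes a phosphatase known from blood cells, was highest at 6.18 ± 0.13 (SD, n = 3). Dusp5 at 4.65 ± 0.10 and Dusp4 at 4.58 ± 0.09 followed, with overlapping libraries. Dusp1 at 3.65 ± 0.53, Dusp16 at 3.19 ± 0.05 and Dusp6 at 3.05 ± 0.22 overlapped as well. Dusp10 at 1.87 ± 0.05, Dusp22 at 1.39 ± 0.13 and Dusp7 at 0.71 ± 0.16 were the lowest, without overlap among them. Dusp2 ranked 1 in each of the 6 groups. Dusp6 ranked 5 or 6 in the unstimulated groups and 9 in every stimulated group. The exon length of Dusp1, 3311 bases, included a long transcript model that reaches past the RefSeq gene.

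**Figure D1:**
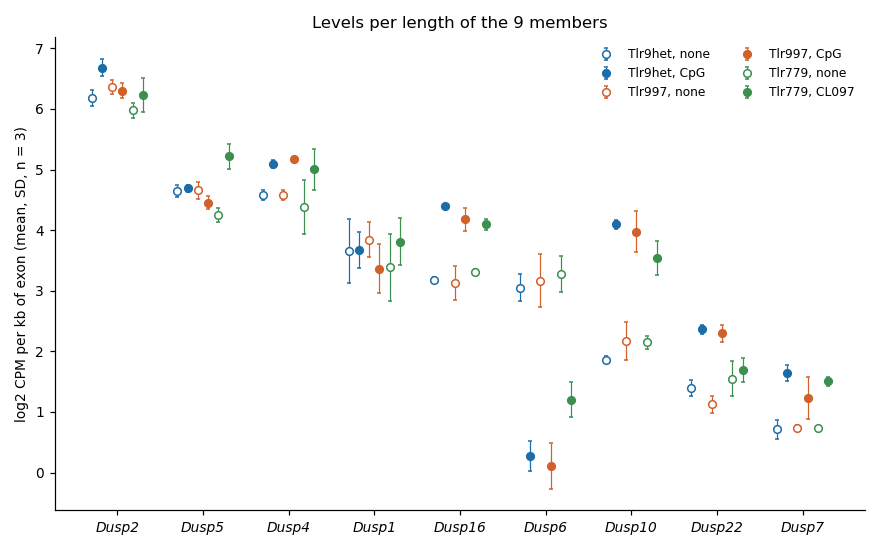
Level per kb of exon (log2 CPM per kb) of the 9 members in the 6 groups; points are means, bars SDs of 3 libraries, open points unstimulated and filled points stimulated cells. Dusp2 is highest in all 6 groups, and Dusp6 moves from rank 5 or 6 to rank 9 with agonist.

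A gene was called where the adjusted p was under 0.05 and the log2 fold change was over 0.5 in size, and rose and fell are written only for called genes. With CpG in Tlr9het cells, 6 of the 9 members rose and 1 fell; over all 11494 genes tested, 29.7% rose and 28.2% fell. The 6 were Dusp2, Dusp4, Dusp7, Dusp10, Dusp16 and Dusp22, and the 1 was Dusp6. With CpG in Tlr997 cells, 4 members rose (Dusp4, Dusp10, Dusp16 and Dusp22) and Dusp6 fell, against 29.6% and 26.0% of all genes. With CL097 in Tlr779 cells, 4 members rose (Dusp5, Dusp7, Dusp10 and Dusp16) and Dusp6 fell, against 22.7% and 23.6% of 11082 genes tested. These counts and shares are of fits without a block. With replicate numbers as blocks, Dusp4 was called higher with CL097 as well (adjusted p = 0.00043 in the limma test). The median log2 fold change of the 9 members was 0.51, 0.49 and 0.62 in the 3 responses, beside 0.04, 0.07 and -0.02 over all genes tested. Dusp10, Dusp16 and Dusp6 were thus called in the same direction in all 3 genotypes.

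**Figure D2:**
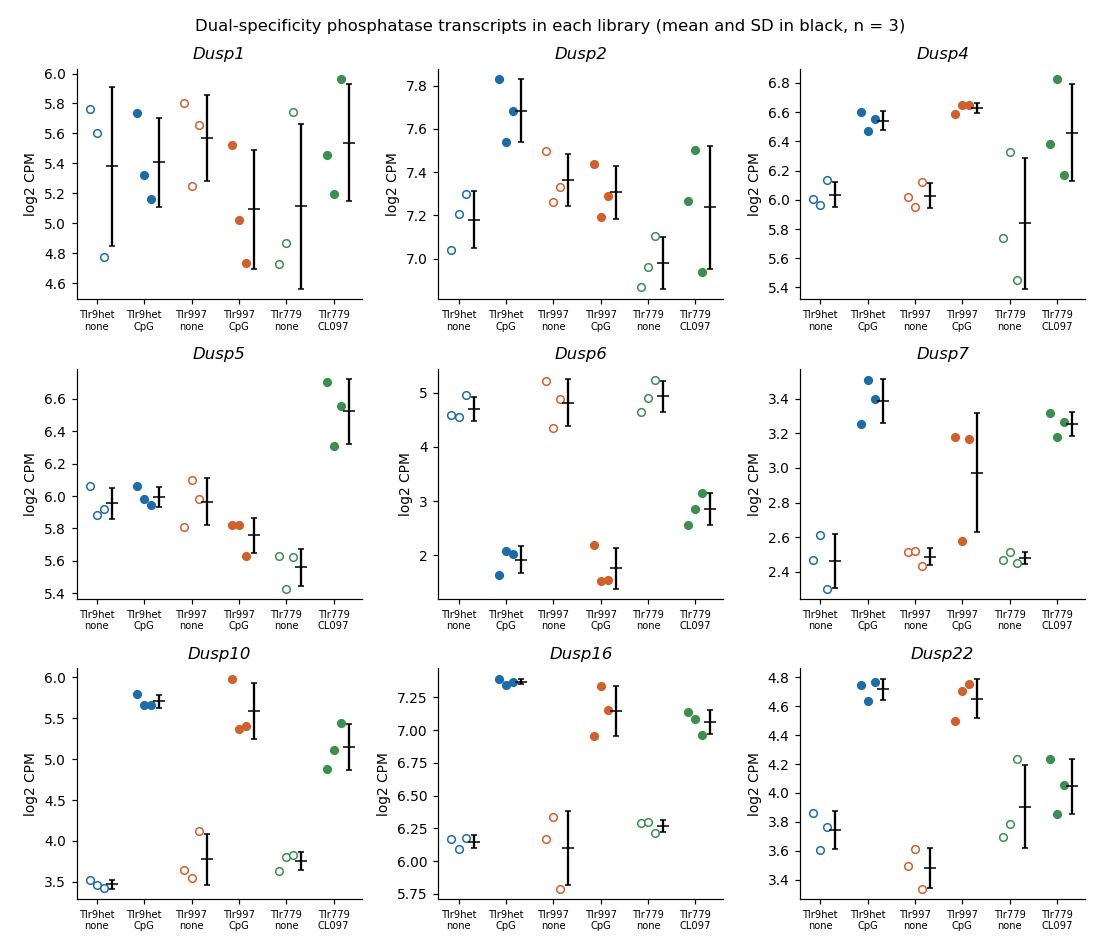
Log2 CPM of each member in each of the 18 libraries; open circles are unstimulated and filled circles stimulated cells, and the black bar is the mean with the SD of 3 libraries. Dusp6 falls from 4.35 or more to 3.14 or less, Dusp10 and Dusp16 separate fully between unstimulated and stimulated libraries, and Dusp1 overlaps in every genotype.

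Among the nuclear enzymes, Dusp1, an immediate-early gene whose product acts on p38, JNK and ERK, was not called in any response. It lies at chr17:26505591-26508472. In Tlr9het it was at 5.76, 5.60 and 4.78 log2 CPM without and 5.74, 5.32 and 5.16 with CpG (libraries of replicates 1, 2 and 3, here and below). In Tlr997 it was at 5.80, 5.25 and 5.66 without and 5.52, 5.02 and 4.73 with CpG. In Tlr779 it was at 4.73, 4.87 and 5.74 without and 5.46, 5.19 and 5.96 with CL097. The groups overlapped in each genotype, and the spread within a group was the widest of the 9 members in most groups. The log2 fold changes were 0.03 (95% interval -0.53 to 0.59), -0.48 (-1.04 to 0.09) and 0.43 (-0.24 to 1.09), with adjusted p of 0.93, 0.12 and 0.23. Intervals this wide do not exclude changes past the threshold. In Tlr779 each CL097 library was above the unstimulated library of the same number, by 0.73, 0.33 and 0.22, and with replicate numbers as blocks the value was 0.43 (SE 0.12, adjusted p = 0.016), still short of the fold threshold. Dusp1 was called higher with CL097, at 0.74, without the unstimulated Tlr779 library of replicate 3, and lower with CpG in Tlr997, at -0.69, without the CpG library of replicate 1.

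Dusp2, at chr2:127336159-127338377, encodes the nuclear phosphatase also known as PAC-1, which acts on ERK and p38. In Tlr9het it was at 7.04, 7.21 and 7.297 log2 CPM without and 7.83, 7.54 and 7.68 with CpG, and the groups did not overlap. In Tlr997 it was at 7.50, 7.26 and 7.33 without and 7.44, 7.19 and 7.29 with CpG, and the groups overlapped. In Tlr779 it was at 6.87, 6.96 and 7.11 without and 7.27, 7.50 and 6.94 with CL097, where 2 of 3 stimulated libraries were above all unstimulated ones. Dusp2 rose 1.42-fold with CpG in Tlr9het (log2 fold change 0.50, SE 0.09, adjusted p = 0.00027). Its value in Tlr997 was -0.06 (95% interval -0.26 to 0.15, adjusted p = 0.60) and in Tlr779 0.26 (-0.06 to 0.58, adjusted p = 0.14). The call in Tlr9het sat at the fold threshold: the value was 0.43 without either the unstimulated or the CpG library of replicate 1.

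Dusp4, a nuclear phosphatase of ERK and JNK at chr8:34807610-34819894, rose with CpG in both genotypes of the Tlr7-/- libraries. It went from 6.003, 5.97 and 6.13 to 6.60, 6.47 and 6.55 log2 CPM in Tlr9het, and from 6.02, 5.95 and 6.12 to 6.59, 6.65 and 6.65 in Tlr997, with no overlap in either. It rose by 0.51 (SE 0.07, adjusted p = 9.9e-06) and by 0.60 (SE 0.07, adjusted p = 2.1e-06) on the log2 scale, that is 1.42-fold and 1.52-fold. In Tlr779 it was at 5.74, 6.33 and 5.45 without and 6.38, 6.83 and 6.17 with CL097, which overlapped although each stimulated library was above the unstimulated library with the same replicate number. The value there was 0.62 (SE 0.24, adjusted p = 0.052) without a block and 0.62 (SE 0.08, adjusted p = 0.00043) once replicate numbers were fitted as blocks. The Tlr9het call was lost, with values of 0.47 to 0.49, without the unstimulated library of replicate 1 or 2 or the CpG library of replicate 1. The Tlr779 value was called, at 0.87 and 0.77, without the unstimulated library of replicate 2 or the CL097 library of replicate 3.

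Dusp5 (chr19:53529145-53541809) encodes a nuclear phosphatase specific for ERK. With CpG it was at 6.06, 5.98 and 5.94 log2 CPM in Tlr9het, against 6.06, 5.88 and 5.92 without. In Tlr997 it was at 5.82, 5.82 and 5.63 with CpG against 5.81, 6.10 and 5.98 without. With CL097 in Tlr779 it was at 6.71, 6.31 and 6.55, against 5.63, 5.43 and 5.62 without, so that all stimulated libraries lay above all unstimulated ones. Dusp5 rose 1.95-fold with CL097 (log2 fold change 0.96, SE 0.11, adjusted p = 0.00018). With CpG the log2 fold change was 0.04 (95% interval -0.15 to 0.22, adjusted p = 0.70) in Tlr9het and -0.21 (-0.39 to -0.02, adjusted p = 0.044) in Tlr997, the latter short of the fold threshold. Agonist, sex, genotype and age cannot be told apart as the source of this contrast, and it was not tested.

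Dusp6, a cytoplasmic phosphatase of ERK at chr10:99263231-99267489, had the widest range of group means of the 9 members, 3.17 on the log2 scale. In Tlr9het it went from 4.59, 4.55 and 4.95 to 1.63, 2.09 and 2.03 log2 CPM with CpG. In Tlr997 it went from 5.22, 4.35 and 4.88 to 2.19, 1.53 and 1.55, and in Tlr779 from 4.65, 4.90 and 5.23 to 2.57, 2.84 and 3.14 with CL097. No stimulated library reached the lowest unstimulated one in any genotype. Dusp6 fell by 2.78 (SE 0.24, adjusted p = 1.7e-07), 3.06 (SE 0.24, adjusted p = 7.6e-08) and 2.08 (SE 0.20, adjusted p = 5.8e-05) on the log2 scale, so that unstimulated levels were 6.87, 8.33 and 4.22 times the stimulated ones. It was called lower under each alternative setting, with values from -3.29 to -1.93. The summed level of the macrophage and monocyte markers moved from 201 to 252 CPM to 144 to 153 CPM with CpG in Tlr9het. It moved from 116 to 305 to 103 to 184 in Tlr997, and from 176 to 445 to 90.3 to 189 with CL097. Lyz2 had the highest mean of these markers in each group. The mean of Itgam moved the other way with CpG, from 3.98 to 4.58 log2 CPM in Tlr9het and from 3.43 to 4.41 in Tlr997. The other markers had lower means with agonist. The part of such cells in the Dusp6 result was not tested.

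Dusp7, at chr9:106368560-106375724 and the other cytoplasmic ERK phosphatase of the set, moved the opposite way. It went from 2.47, 2.61 and 2.30 to 3.25, 3.51 and 3.40 log2 CPM with CpG in Tlr9het, a 1.9-fold rise (log2 fold change 0.93, SE 0.18, adjusted p = 0.0004). In Tlr779 it went from 2.47, 2.52 and 2.45 to 3.32, 3.18 and 3.27 with CL097, a rise of 1.71-fold (0.77, SE 0.14, adjusted p = 0.0018). In Tlr997 it went from 2.51, 2.52 and 2.43 to 3.18, 2.58 and 3.17, where the CpG library of replicate 2 stayed close to the unstimulated libraries. The Tlr997 value of 0.49 (SE 0.18, adjusted p = 0.027) fell short of the fold threshold, and it was called, at 0.68, without that library, and at 0.50 without the unstimulated library of replicate 2. Dusp7 and Dusp6 thus differed in direction in both Tlr9het and Tlr779.

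The members that prefer JNK and p38 rose in all 3 genotypes. Dusp10 (chr1:184034381-184075636) went from 3.53, 3.47 and 3.42 to 5.79, 5.66 and 5.66 log2 CPM with CpG in Tlr9het and from 3.65, 3.55 and 4.13 to 5.98, 5.36 and 5.41 in Tlr997. With CL097 in Tlr779 it went from 3.64, 3.80 and 3.83 to 4.88, 5.11 and 5.45. No groups overlapped, and the rises were 4.7-fold, 3.5-fold and 2.62-fold (log2 fold changes 2.23, SE 0.17, 1.81, SE 0.17, and 1.39, SE 0.15, with adjusted p of 4.2e-08, 4.1e-07 and 0.00012). Dusp16 (chr6:134715468-134807063) went from 6.17, 6.10 and 6.18 to 7.39, 7.35 and 7.37 log2 CPM in Tlr9het, where the 3 libraries of each group lay close together. In Tlr997 it went from 6.17, 6.34 and 5.79 to 6.95, 7.33 and 7.15, and in Tlr779 from 6.29, 6.30 and 6.21 to 7.14, 7.09 and 6.96. The rises of Dusp16 were 2.33-fold, 2.06-fold and 1.73-fold (log2 fold changes 1.22, SE 0.12, 1.05, SE 0.12, and 0.79, SE 0.07, with adjusted p of 6.4e-07, 3.3e-06 and 4.5e-05).

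Dusp22 (chr13:30660059-30711232), whose atypical product acts in the JNK pathway and on the kinase Lck in T cells, rose with CpG in both genotypes. It went from 3.86, 3.60 and 3.77 to 4.75, 4.64 and 4.77 log2 CPM in Tlr9het and from 3.50, 3.61 and 3.34 to 4.50, 4.71 and 4.75 in Tlr997, without overlap. These were rises of 1.96-fold (log2 fold change 0.97, SE 0.11, adjusted p = 3.6e-06) and 2.25-fold (1.17, SE 0.11, adjusted p = 6.4e-07). With CL097 in Tlr779 it was at 4.23, 3.85 and 4.06, against 3.69, 3.79 and 4.24 without, and the groups overlapped. The value there was 0.14 (95% interval -0.26 to 0.55, adjusted p = 0.51).

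**Figure D3:**
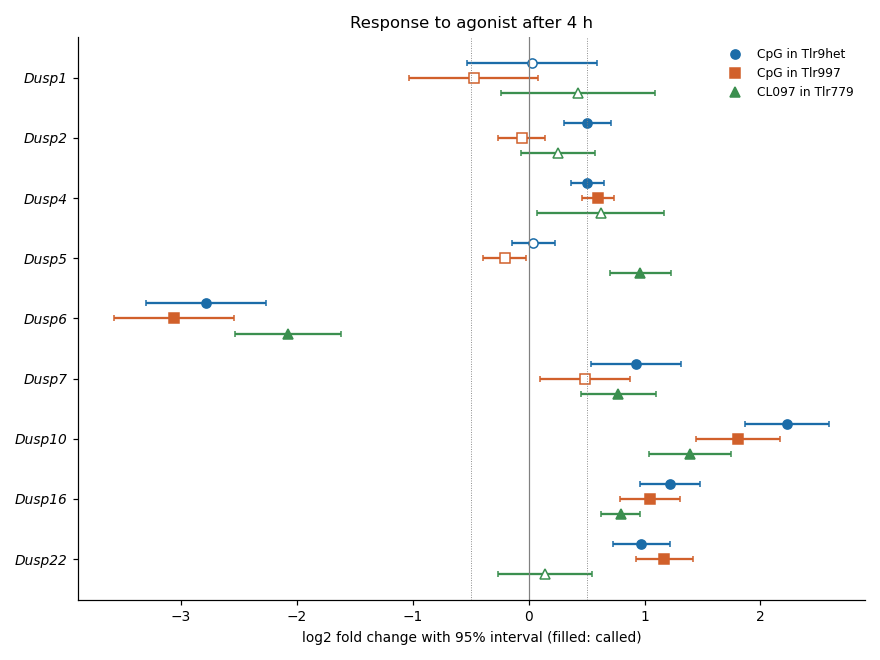
Log2 fold change of each member with agonist in the 3 genotypes (circles, CpG in Tlr9het; squares, CpG in Tlr997; triangles, CL097 in Tlr779); bars are 95% intervals, filled symbols are called and dotted lines mark 0.5 in either direction. Dusp6 lies at -2.78, -3.06 and -2.08, Dusp10 at 2.23, 1.81 and 1.39, and Dusp5 is filled for CL097 alone.

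The comparison of Tlr997 with Tlr9het asks whether the TIR domain changes the response to the same agonist. Before stimulation no member was called, and 0.0174% of all genes tested were (2 of 11494). At an unadjusted p under 0.05, 1237 genes in all differed before stimulation. Dusp22 was among them, at -0.26 (SE 0.11, adjusted p = 0.43). With CpG, 2.72% of all genes tested were called between the genotypes and no member was. Dusp2 came nearest, with an adjusted p of 0.033 at -0.38 (SE 0.09), short of the fold threshold, and its CpG libraries did not overlap, at 7.19 to 7.44 log2 CPM in Tlr997 and 7.54 to 7.83 in Tlr9het. Dusp7 at -0.41 (adjusted p = 0.23) and Dusp5 at -0.24 (adjusted p = 0.14) did not pass the test.

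In the test of the difference between both CpG responses, 1 of 9 members was called, Dusp2, and 1.54% of all genes tested were. Its response in Tlr997 was lower than that in Tlr9het by 0.56 on the log2 scale (SE 0.13, 95% interval of the difference -0.85 to -0.28, adjusted p = 0.049). Both parts enter this value: Tlr997 minus Tlr9het was 0.18 (SE 0.09, adjusted p = 0.51) unstimulated and -0.38 with CpG, and neither was called. In Tlr9het all CpG libraries were above all unstimulated ones, while in Tlr997 both groups overlapped. The call was close to the threshold and was lost in 7 of the 12 fits that left out a library, with no filter on low values (adjusted p = 0.20), without the trend of the variance (0.13) and with all 18 libraries in 1 model (0.13). For the other 8 members the difference of the responses lay between -0.50 (Dusp1) and 0.20 (Dusp22), with adjusted p of 0.34 or more. The 95% interval was narrowest for Dusp4, -0.11 to 0.29, and widest for Dusp1, -1.30 to 0.29.

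**Figure D4:**
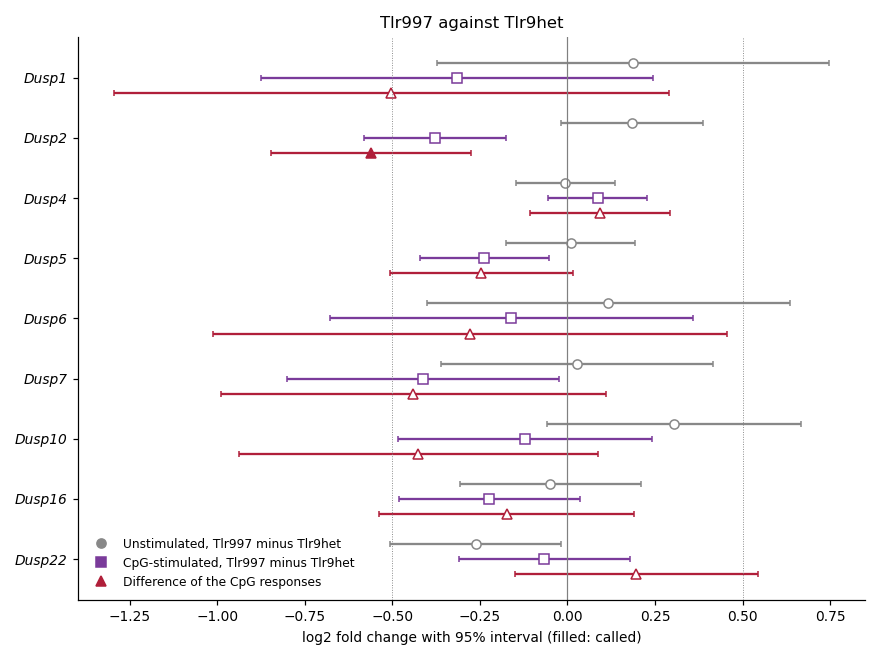
Tlr997 minus Tlr9het on the log2 scale for each member, without stimulation (circles), with CpG (squares) and as the difference of the CpG responses (triangles), with 95% intervals; filled symbols are called. The triangle of Dusp2, at -0.56, is filled, and all other symbols are open.

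Other genes of the MAPK pathway were counted from lists. These held genes of the dual-specificity phosphatase family outside the 9, and genes of the ERK, p38 and JNK cascades. They also held transcription factors that MAPKs control and other feedback regulators. Each count below stands beside the shares of all genes tested. These were 29.7% higher and 28.2% lower in Tlr9het, 29.6% and 26.0% in Tlr997, and 22.7% and 23.6% with CL097. Of the 17 other genes of the dual-specificity phosphatase family, 9 passed the filter in the Tlr7-/- libraries. In Tlr9het 4 of the 9 rose and 1 fell with CpG (median 0.13, beside 0.04 over all genes), in Tlr997 4 rose and 2 fell (0.77, beside 0.07), and with CL097 4 rose and 2 fell (-0.43, beside -0.02). Dusp14, a small phosphatase without a MAPK-binding domain, had the highest CpG response of the list in Tlr9het and rose in all 3 genotypes, by 2.87, 3.08 and 2.46. It was at -0.58 to 0.71 log2 CPM without and 1.87 to 3.49 with agonist, low levels at which the size of a fold change is less certain. Dusp19 had the lowest in Tlr9het, at -0.91 (adjusted p = 0.041 without and 0.053 with replicate numbers as blocks). That call was also lost with no filter on low values (adjusted p = 0.076) and without the unstimulated library of replicate 1 or 3 or the CpG library of replicate 1 or 2. In Tlr997 Dusp19 was at -0.66 (adjusted p = 0.13), or at -0.89 and called without the unstimulated library of replicate 3. In Tlr779 it was at -0.91 (adjusted p = 0.016), and that call was lost without the unstimulated library of replicate 1 or 3.

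In the ERK cascade, 12 of 13 genes were tested. CpG raised 4 and lowered 3 in Tlr9het, and raised 2 and lowered 2 in Tlr997, while CL097 raised 3 and lowered 2. The list medians were -0.23, -0.15 and -0.17, beside 0.04, 0.07 and -0.02 over all genes tested. Ksr1, a scaffold that holds the kinases of the cascade together, rose by 2.75, 2.19 and 2.10 on the log2 scale. Mapk3, which encodes ERK1, was the gene of this list that was called between the genotypes with CpG, at 0.57 higher in Tlr997 (SE 0.13, adjusted p = 0.02). It was at 6.10, 5.55 and 5.74 log2 CPM in Tlr997 with CpG, above the 5.09, 5.22 and 5.37 of Tlr9het. That call was lost with no filter on low values (adjusted p = 0.12), without the variance trend (0.06), and without the Tlr997 CpG library of replicate 1 or the Tlr9het CpG library of replicate 1 or 2. The difference of its responses, 0.62 (adjusted p = 0.11), did not pass the test. It was called with replicate numbers as blocks within each genotype (adjusted p = 0.017).

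Of the p38 cascade, CpG raised 2 and lowered 5 of 11 genes tested in each of the 2 genotypes. CL097 raised 0 and lowered 6 of 12 in Tlr779. The list medians were 0.03, -0.23 and -0.58, beside 0.04, 0.07 and -0.02 over all genes tested. Map2k6, whose kinase activates p38, fell with log2 fold changes of -3.52, -4.30 and -3.05, from 1.79 to 3.52 log2 CPM without to -3.27 to 0.08 with agonist, which is near the bottom of the measured range. Mapk14, which encodes p38α and was named after its values were seen, fell by 2.14, 2.02 and 2.00. Map3k5, a kinase upstream of both p38 and JNK, had the highest CpG response of the list in Tlr9het. It rose by 0.75 in Tlr9het, and in Tlr997 its value was 0.14 (adjusted p = 0.15); the responses differed by -0.61 (SE 0.12, adjusted p = 0.017), a call lost with no filter on low values (0.096), without the variance trend (0.069) and without the Tlr9het CpG library of replicate 1 (0.051). The JNK cascade had 8 of 11 genes tested, of which 0 rose and 2 fell with CpG in Tlr9het, 1 rose and 2 fell in Tlr997, and 0 rose and 2 fell with CL097 (list medians -0.29, -0.01 and -0.11). Mapk8, which encodes JNK1, had the highest value in Tlr9het, 0.495 and so just short of the threshold (called, at 0.58 and 0.54, without the unstimulated or the CpG library of replicate 1), and Map3k1, an upstream kinase of JNK, the lowest, with falls at -2.31, -2.16 and -0.80.

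Of 17 transcription factors downstream of MAPKs, 5 rose and 7 fell with CpG in Tlr9het, and 4 rose and 8 fell in Tlr997. With CL097, 4 rose and 4 fell of 16 tested. The list medians were 0.20, -0.36 and 0.11, beside 0.04, 0.07 and -0.02 over all genes tested. Jun, an AP-1 subunit and substrate of JNK, went from 5.54 to 6.31 log2 CPM without to 9.39 to 10.67 with agonist and rose by 4.68, 3.78 and 3.72. With CpG it was 0.78 lower in Tlr997 than in Tlr9het (SE 0.15, adjusted p = 0.0097), a call lost with no filter on low values (0.093) and without the Tlr9het CpG library of replicate 1 (0.052). The difference of the responses was -0.91 (adjusted p = 0.051 without and 0.029 with replicate numbers as blocks), and it was called, at -1.14, without the unstimulated Tlr997 library of replicate 3. That difference was also called with a filter over 2 log2 CPM (0.045), with log2(CPM + 1) (0.042) and with blocks within each genotype (0.02). Egr3, an early growth response factor, fell by 2.79, 2.34 and 1.00. Among 7 of 11 tested feedback regulators of other kinds, CpG raised 1 and lowered 4 in either genotype, and CL097 raised 1 and lowered 1 (list medians -0.75, -0.83 and -0.25). Spred1, an inhibitor of ERK activation, rose by 1.32, 1.10 and 0.84. Spry1, of the Sprouty inhibitors, fell by 1.35 and 1.51 with CpG and was at -0.29 (adjusted p = 0.30) with CL097. Zfp36, whose RNA-binding product tristetraprolin is regulated by p38, fell by 0.75 in Tlr9het and by 1.30 in Tlr997. With CpG it was 0.60 lower in Tlr997 than in Tlr9het (SE 0.09, adjusted p = 0.0016). That call held in each of the 12 fits that left out a library. The difference of its responses was -0.55 (SE 0.12, adjusted p = 0.038). This difference lost its call in 9 of the 12 fits that left out a library. It was also lost with no filter on low values (0.17), without the variance trend (0.11) and with all 18 libraries in 1 model (0.096). With CL097 the value of Zfp36 was 0.41 (adjusted p = 0.021), short of the fold threshold, and it was called, at 0.51, without the CL097 library of replicate 3.

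**Figure D5:**
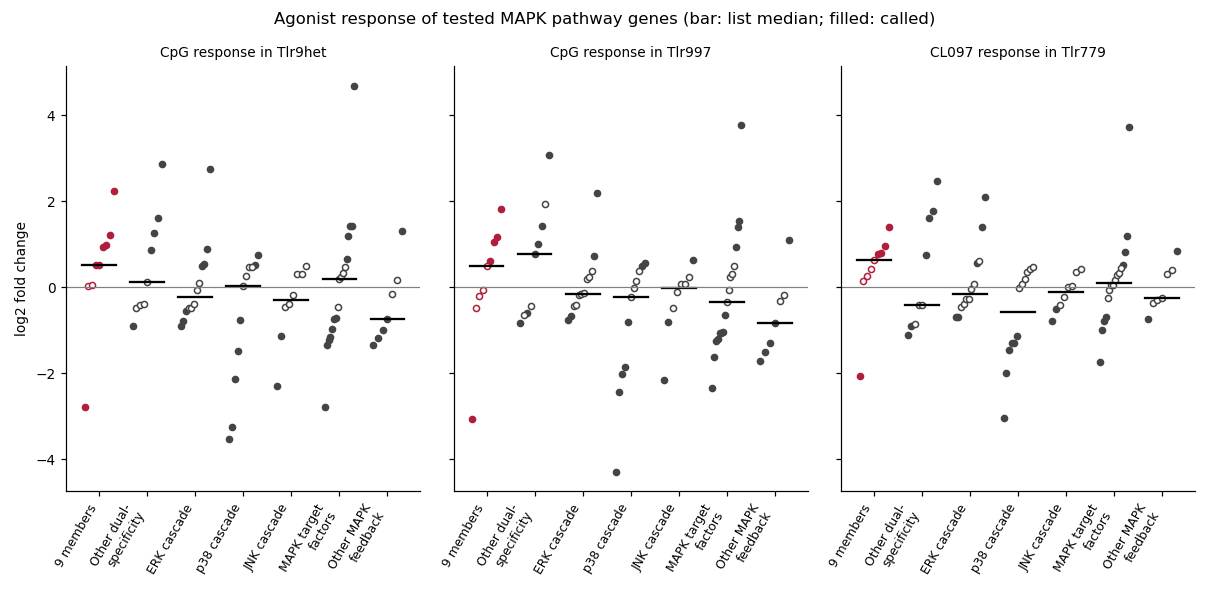
Log2 fold change with agonist of every tested gene of the 9 members (red) and of 6 MAPK pathway lists (grey) in the 3 genotypes; filled points are called and bars are list medians. Jun stands highest, at 4.68, 3.78 and 3.72, and Map2k6 lowest, at -3.52, -4.30 and -3.05.

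For the 3 members with the widest range of group means, the genes with the most similar pattern were sought among 11012 genes tested in both models, by the root mean square difference over the 6 group means after each gene was centred on its own mean. Nearest to Dusp6 (range 3.17) were Smim14 at 0.065, Gng2 at 0.075 and Unc119b at 0.080 on the log2 scale. Nearest to Dusp10 (range 2.23) were Rpf2 at 0.068, Mtfp1 at 0.068 and Timm23 at 0.069. Nearest to Dusp16 (range 1.27) were Mrpl23 at 0.046, Sf3a2 at 0.049 and Ube2o at 0.049. None of these 9 nearest genes was a member or on a list of MAPK pathway genes. Such genes were a small part of the 11012 compared, so their absence among 9 says little.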

How the data were processed

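Per the labels, bead-purified splenic B cells gave 18 mRNA libraries in 6 groups of 3. The submitters' processing notes name FastQC 0.11.7, Trim Galore 0.6.5, STAR 2.6.1a, featureCounts of Subread 2.0.1, limma and the build mm10; the study's methods add quantile normalization and voom. The authors deposited log2 CPM per gene, without counts, so the depth of each library is unknown and no counting interval was computed. The size of the fold changes of low genes is less certain. Of 6209 genes under -4 log2 CPM in all libraries, 6008 held a single value per replicate number (within 0.0015), which for 524 differed between numbers. An offset removed per number would leave such values; the sources used here state no such step, the cause was not tested, and a fit without a block would not account for it.

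Genes over 0 log2 CPM in at least 3 libraries were tested with limma 3.58.1 (R 4.3.3), with a variance trend, on the deposited values, the 12 Tlr7-/- libraries in 1 model and the 6 Tlr779 libraries in another, with Benjamini-Hochberg adjustment over all genes; the script was tested on simulated data. Thresholds (adjusted p under 0.05, log2 fold change over 0.5) were those of the study's methods. The members, lists and tests were chosen with earlier results of these data known. Named pathway genes were the highest and lowest CpG response in Tlr9het per list and those called between genotypes with CpG or in the difference of responses; a gene that met this rule is not reported here. Deviations from group means of same-numbered libraries correlated, over 11676 genes, at 0.524, 0.27 and 0.514 in Tlr9het and 0.219, 0.413 and 0.284 in Tlr779. Those numbers were treated as pairs only in fits with a block and in differences of same-numbered libraries. The labels do not tie a number to a mouse. In Tlr997 the correlations were 0.394, 0.066 and 0.036, and its numbers did not meet the criterion for pairs. The main fits had no block, so calls and p-values not said to come from a block ignore any pairing. The replicate block was shared by Tlr9het and Tlr997. Where the libraries are not from separate mice, p-values measure only the spread between samples. Alternatives were a replicate block, other filters and thresholds, log2(CPM + 1), median centring, no trend, all libraries in 1 model, and leaving out each library.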

Additional observations from a re-analysis of the deposited data

Results flagged for a closer look

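Dusp2 was the member whose CpG response differed between the genotypes by a test of the difference itself: the response in Tlr997 minus that in Tlr9het was -0.56 on the log2 scale (SE 0.13, adjusted p = 0.049). All 3 CpG libraries were above all 3 unstimulated ones in Tlr9het, and the groups overlapped in Tlr997. Tlr997 minus Tlr9het was 0.18 unstimulated (adjusted p = 0.51) and -0.38 with CpG (adjusted p = 0.033), and neither was called. Over 22 alternatives the value stayed between -0.63 and -0.49 and the adjusted p between 0.017 and 0.20, and 11 of them ended the call. With 3 libraries per group, no group was tested for a sample far from the others.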

How the results depend on the processing

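With a log2 fold change threshold of 1, members called higher were 2 with CpG in Tlr9het and 1 with CL097, and members called lower in the difference of the CpG responses were 0; with no such threshold, members called lower were 2 with CpG in Tlr997 (Dusp5 joining Dusp6) and 1 between the genotypes with CpG (Dusp2). The count of 1 for the difference of the responses became 0 with no filter on low values, without the variance trend and with all 18 libraries in 1 model. Leaving out a library gave 0 to 1 there and 1 to 2 members lower with CpG in Tlr997. Dusp2 lost that call without the Tlr997 unstimulated library of replicate 1 or the Tlr997 CpG library of replicate 2 or 3. It was also lost without the Tlr9het unstimulated library of replicate 1 or 2, or the Tlr9het CpG library of replicate 1 or 3. The count of 6 members higher with CpG in Tlr9het became 4 without the unstimulated or the CpG Tlr9het library of replicate 1. It became 5 without the unstimulated Tlr9het library of replicate 2. Calls gained by leaving out a library are given with each member above. No called member changed direction under any alternative run. Median centring moved the median of all genes by less than 0.1 in each comparison and changed no member's call. The library medians of genes that passed a filter on low values already lay between 4.76 and 4.79 log2 CPM. Centring could therefore change little.

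With the replicate number as a block, Dusp4 with CL097 was called (0.62, adjusted p = 0.00043) and no other member's call changed; of the other named genes, the block ended the call of Dusp19 with CpG in Tlr9het and added those of Ksr1 between the genotypes with CpG and of Jun in the difference of the responses. The block took the count of all genes called in the difference of the responses from 177 to 215, and to 328 with a block within each genotype. Dusp2 was there at -0.56 with adjusted p = 0.031 and 0.017. The block within each genotype also called Ksr1 (0.035), Mapk3 (0.017) and Jun (0.02) in that difference. It ended the call of Dusp19 with CpG in Tlr9het (0.062). The Tlr997 numbers did not meet the criterion for pairs. Depth, unknown here, limits what can be said of the lowest genes, such as Map2k6 with agonist.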
